A study of Mus musculus with 15 samples.

Results

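The Kv1 potassium channel genes were followed in nuclear RNA of parvalbumin (Pv) neurons from the adult mouse neocortex. The members were the rows named Kcna1 to Kcna6, which encode pore subunits, and Kcnab1 to Kcnab3, which encode beta subunits. These are 9 of the 46380 genes whose symbol is shared by all 15 count tables. All mice carried PvCre and ROSA-tomato-lox, so that Cre made under the parvalbumin gene switched on a fluorescent nuclear label, and fluorescent nuclei were sorted from individual frozen cortices. Ctrl mice (n = 4) were untreated and Thra+/+. Mut mice (n = 4) were untreated littermates with ThraAMI/+, a floxed allele that expresses TRalpha1L400R, a dominant negative thyroid hormone receptor. PTU mice (n = 3) were Thra+/+ and ate propylthiouracil, an inhibitor of thyroid hormone synthesis, for 2 weeks. PTU_TH mice (n = 4) were Thra+/+, ate the same diet and were injected intraperitoneally with thyroid hormones 24 h before dissection. The labels give neither the sex nor the exact age of the mice. Cre driven by the parvalbumin gene limits the label, and the mutant receptor, to cells that have used that gene.

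Kv1 channels are voltage-gated potassium channels built from 4 pore subunits, which may be of different Kv1 types, with cytoplasmic beta subunits docked below the pore. They open at voltages close to rest and oppose small depolarisations. In fast-spiking Pv neurons they sit at the axon initial segment and along the axon, where they set the threshold for firing and damp near-threshold activity. The beta subunits resemble aldo-keto reductases, assist the folding and axonal transport of the channel and, for some, block the pore rapidly from the inside.

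The pore genes are close relatives, so the stretch that makes them potassium channels is shown for each, both to introduce the family and to show by how many bases its members can be told apart in short reads. In these 30-base windows of the coding strand, taken from GENCODE M21 transcripts (GRCm38) and written 5′ to 3′, capitals mark the 18 bases that encode the potassium selectivity filter.
Kcna1: atgaccACTGTGGGATACGGTGACatgtac
Kcna2: atgacaACTGTAGGCTATGGAGACatggtt
Kcna3: atgacaACTGTTGGTTATGGTGATatgcac
Kcna4: atgacaACTGTGGGCTATGGGGACatgaag
Kcna5: atgaccACTGTAGGCTACGGGGACatgagg
Kcna6: atgaccACGGTAGGTTATGGGGACatgtac
The filter peptide encoded by the capitals is the same in all 6, since the windows were located by it. Its bases differed from those of Kcna1 at 4 of 18 positions in Kcna2, 4 in Kcna3, 3 in Kcna4, 3 in Kcna5 and 5 in Kcna6. The aligned coding sequences of pore genes were 69.9% to 77.5% identical. The longest exact run shared by transcripts of any pair was at most 31 bases, shorter than the 75-base reads, with the exception of 91 bases between Kcna5 and Kcna6.

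The beta subunit genes are shown where their coding sequences are most alike, because Kcnab2 carries the result below. Capitals mark bases identical in all 3 genes.
Kcnab1: TTcCAGAGaGAGAAGGTGGAGgTcCAGCTG
Kcnab2: TTcCAGAGgGAGAAGGTGGAGgTcCAGCTG
Kcnab3: TTtCAGAGgGAGAAGGTGGAGaTgCAGCTG
Even in this window Kcnab1 differed from Kcnab2 at 1 base and Kcnab3 at 3 bases. Identity over the aligned coding sequences was 68.7% to 76.5%, and no exact run shared by transcripts of a beta pair was longer than 26 bases.

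In GRCm38, Kcna1 (chr6:126640397-126646384), Kcna5 (chr6:126532551-126535412) and Kcna6 (chr6:126708329-126740674) lie side by side on the minus strand of chromosome 6. Kcna3 (chr3:107036169-107038070) and Kcna2 (chr3:107101146-107115005) are neighbours on the plus strand of chromosome 3, and Kcna4 (chr2:107290639-107298502) is on chromosome 2. The beta genes are Kcnab1 (chr3:65109384-65378223), Kcnab2 (chr4:152390742-152477871) and Kcnab3 (chr11:69326258-69333042). Kcna6 shares 39.6% of its exonic bases with Gm26673, a gene annotated across it. Of the 9 genes, 7 have promoters in the RefSeq table (GRCm38.p6), 11 promoters of 300 bases in all. Kcna1 and Kcnab3 have none there, so theirs were not searched. None of the 11 promoters holds the thyroid and retinoid receptor half-site AGGTCA on either strand, against 16.3% of the 32851 promoters in the table. So few promoters cannot be told apart from that share.

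Depth ranged from 12957838 to 32571175 counts per library, with 22333742 to 32571175 in Ctrl and Mut and 12957838 to 19141683 in PTU and PTU_TH. The tables came in 2 sets with different gene lists, one of Ctrl and Mut and one of PTU and PTU_TH, so the set and the diet cannot be told apart wherever a PTU group is compared with Ctrl. A list of 8 genes for Pv neurons (Pvalb, Gad1, Gad2, Slc32a1, Syt2, Erbb4, Lhx6 and Kcnc1) summed to 5024 to 8469 CPM (counts scaled to library size). Pvalb itself was 67.1 to 150.4 CPM. The sum did not follow Pvalb and does not single out Pv neurons. Its median was 6994 CPM in Ctrl and 7951 in Mut, where Pvalb had medians of 120 and 79.5 CPM. Markers of other interneurons summed to 49.5 to 245 CPM over 6 genes. Markers of excitatory neurons summed to 181 to 267 CPM over 8 genes, and those of oligodendrocytes to 85.0 to 204 CPM over 6. Astrocytes (6 genes, at most 44.4 CPM), oligodendrocyte precursors (4 genes, at most 13.2 CPM), microglia (5 genes, at most 16.9 CPM) and endothelium (4 genes, at most 13.7 CPM) were lower, and Cldn5 of endothelium was at 0 in some libraries. In each group 1 astrocyte marker and 1 microglia marker were at 0 in all libraries, so these sums rest on fewer genes. Thra averaged 58.7 ± 6.46 CPM in Ctrl (SD, n = 4) and 32.8 ± 4.57 in Mut (n = 4). Hr, a gene induced by the hormone, averaged 14.6 ± 1.72 CPM in Ctrl, 1.77 ± 1.54 in Mut, 3.92 ± 1.72 in PTU (n = 3) and 47.2 ± 2.95 in PTU_TH (n = 4). Y-linked transcripts were present in Ctrl replicate 2, Mut replicates 1, 2 and 3, PTU replicates 6 and 7, and PTU_TH replicates 3 and 4, so the groups differed in this respect. In nuclear RNA pooled from many sorted nuclei, fewer cells of a type and less RNA per cell cannot be told apart.

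Pv neuron nuclei held transcripts of 2 pore genes and of all 3 beta genes at high levels. To set genes of different length side by side, CPM were divided by the kilobases of all annotated exons of a gene. The annotation and mode used in counting are not known, so the order and shares of genes depend on this divisor. On this scale Kcnab3 had a median of 93.4 over the 15 libraries (range 66.8 to 137) and Kcna1 one of 84.9 (50.2 to 126). Kcnab2 had a median of 40.4 (20.4 to 53.8), Kcna2 one of 39.9 (26.1 to 55.3) and Kcnab1 one of 23.4 (18.04 to 28.6). The order of Kcnab3 and Kcna1 depended on the group: Kcna1 averaged 90.2 ± 18.1 in Ctrl against 84.7 ± 13.4 for Kcnab3, whereas Kcnab3 had the higher mean in Mut, PTU and PTU_TH, and it was the higher in 10 of 15 libraries. Kcna2 exceeded Kcnab2 in 10 of 15 libraries and on average in Ctrl, Mut and PTU, and Kcnab2 on average in PTU_TH (49.4 ± 3.54 against 46.5 ± 6.41). Kcna1 exceeded Kcnab2, and Kcna2 exceeded Kcnab1, in 15 of 15.

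**Figure D1:**
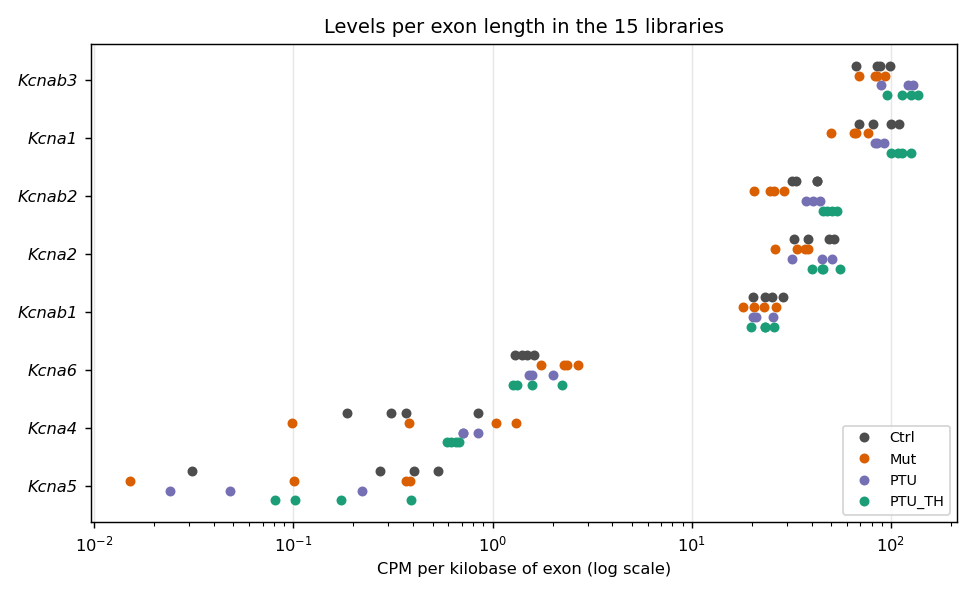
Level of each Kv1 gene in CPM per kilobase of exon (log scale); each point is 1 of the 15 libraries and colours give the group. The 5 genes at the top lie between 18.04 and 137, and Kcna6, Kcna4 and Kcna5 lie at or under 2.68; Kcna3, at 0 counts, is not drawn.

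The other pore genes were far lower. Kcna6 had a median of 1.57 CPM per kilobase, and Kcnab1, next above it, was 7.65-fold to 20.5-fold higher within each library. Kcna4, whose subunit gives rapidly inactivating channels, had a median of 0.654 CPM per kilobase, and Kcna5 one of 0.173. Kcna5 was represented by 1 to 38 counts per library. Kcna3, best known from lymphocytes, was listed at 0 in all 15 libraries, where 3 counts, the limit that a count of 0 allows, would be 0.232 CPM in the shallowest library. Xist, the abundant nuclear RNA of the inactive X chromosome in females, was also listed at 0 in all 15 libraries, the 7 without Y-linked counts included, so a 0 in these tables cannot be read as absence of the transcript. In all, 3722 of 21144 protein-coding genes (17.6%) were at 0 in every library.

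Within the pore family, Kcna1, the subunit mutated in episodic ataxia, made up 61.5% to 71.7% of the summed per-kilobase level in each library. Kcna2, its usual partner in axonal channels, made up 26.4% to 35.2%, and Kcna6 0.720% to 3.00%. Among beta genes Kcnab3 held 55.2% to 68.6%, Kcnab2 18.2% to 27.3% and Kcnab1 10.3% to 19.0%. The per-kilobase level of Kcna1 relative to Kcna2 was 2.11 ± 0.142 in Ctrl, 1.91 ± 0.114 in Mut, 2.11 ± 0.469 in PTU and 2.43 ± 0.224 in PTU_TH (mean ± SD, n = 4, 4, 3 and 4). Per kilobase, Kcna1 was thus the higher of the pair in every group, and the range of each other group overlapped that of Ctrl. This order rests on the division by exon length, 4.78 kb for Kcna1 and 11.906 kb for Kcna2. In CPM, Kcna2 had the higher mean in every group, at 510 in Ctrl, 404 in Mut, 508 in PTU and 554 in PTU_TH. Kcna1 averaged 431, 309, 416 and 537 CPM, in the same order.

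**Figure D2:**
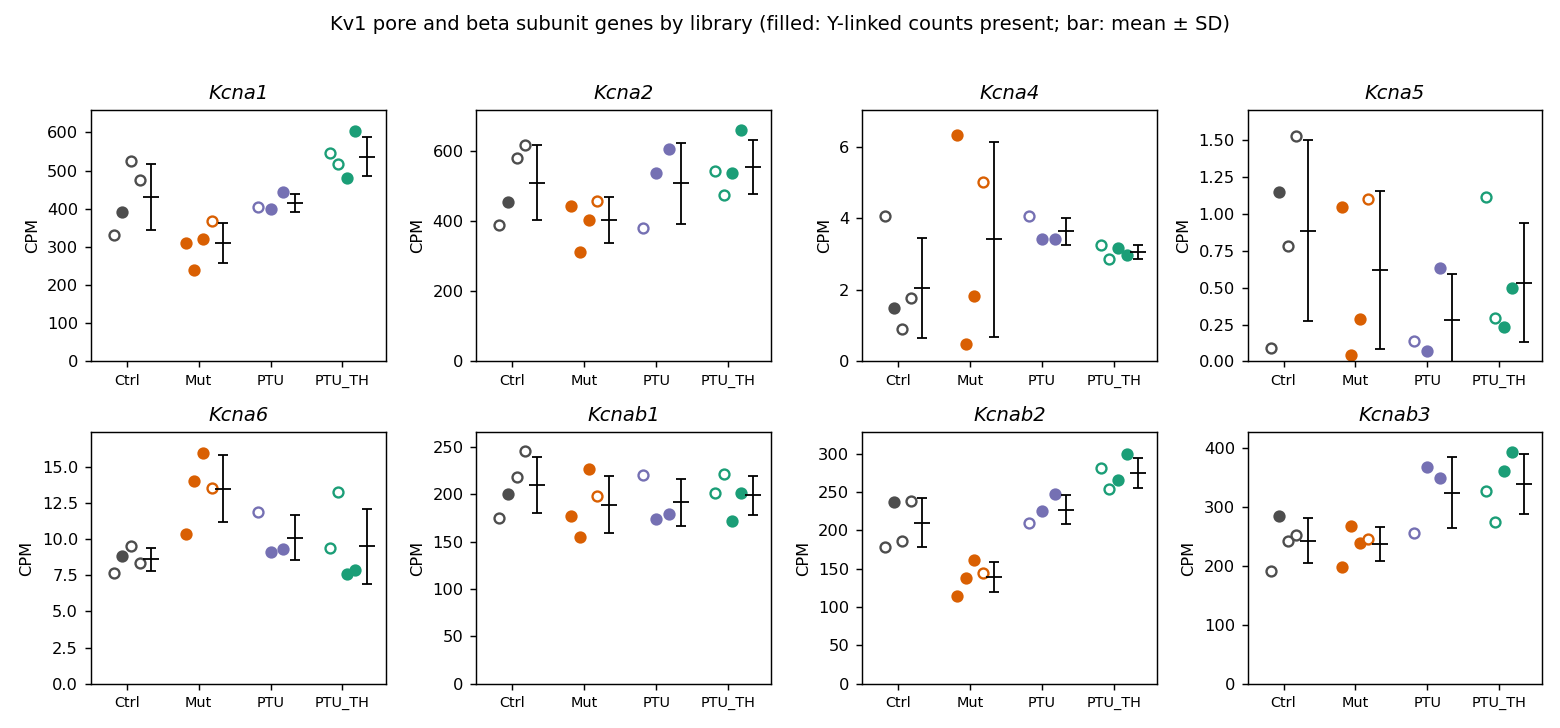
TMM-scaled CPM of 8 Kv1 genes in each of the 15 libraries, by group, with mean ± SD beside the points; filled points have Y-linked counts. Kcnab2 lies between 114 and 162 CPM in Mut, below every library of the other groups, and Kcna1 lies between 481 and 603 CPM in PTU_TH, above every PTU library.

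The first comparison asked what the hormone injection changed in mice on the same diet, PTU_TH against PTU. No Kv1 gene passed the test. Kcna1 and Kcnab2 had the smallest p-values, both with higher values after the injection. Of the 9 genes, 7 passed the filter on low counts and 0 were called at an adjusted p under 0.05 (quasi-likelihood test of edgeR, Benjamini-Hochberg adjusted over 15288 genes), against 0.281% of all genes tested. At an unadjusted p under 0.05 there were 2, against 7.37% of all genes. DESeq2 and limma-voom also called 0, where they called 1.61% and 1.12% of all genes. Of the 7 log2 fold changes 5 were positive, as were 49.5% of those of all genes, and their median was 0.08, against -0.003 for all genes.

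Kcna1 levels were 406, 399 and 443 CPM in PTU and 545, 518, 481 and 603 CPM in PTU_TH. Every injected animal was above every animal on the diet alone. The log2 fold change was 0.38 ± 0.14 (SE), with an adjusted p of 0.523 (edgeR) and an unadjusted p of 0.0240. Kcnab2, whose subunit helps to bring Kv1 channels to the axon, was at 209, 226 and 247 CPM in PTU and at 281, 255, 266 and 300.3 CPM in PTU_TH. Its groups did not overlap either, and the log2 fold change was 0.29 ± 0.12 (adjusted p = 0.616, unadjusted p = 0.0361, edgeR). Kcna4 was the third gene without overlap, at 4.08, 3.42 and 3.43 CPM in PTU and 3.27, 2.86, 3.16 and 2.98 CPM in PTU_TH, a log2 fold change of -0.24 ± 0.22 (adjusted p = 0.973, edgeR). Ranges that do not overlap were found for 8.29% of all genes tested. Pvalb was likewise higher without overlap, at 90.5 to 105 CPM in PTU and 119 to 150.4 CPM in PTU_TH (log2 fold change 0.47 ± 0.12, adjusted p = 0.277, edgeR), and its part in the Kv1 values was not tested.

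The remaining pore genes did not separate the groups. Kcna2 averaged 508 ± 114 CPM in PTU and 554 ± 76.4 in PTU_TH, and the interval of its log2 fold change ran from -0.28 to 0.56. Kcna6 averaged 10.1 ± 1.55 and 9.501 ± 2.61 CPM. Among beta genes, Kcnab1, whose subunit can inactivate the channel, averaged 191 ± 25.0 CPM in PTU and 199 ± 20.7 in PTU_TH, a log2 fold change of 0.06 ± 0.14. Kcnab3 averaged 324 ± 60.4 and 338 ± 50.6 CPM, a log2 fold change of 0.08 ± 0.17. These 95% intervals, from -0.26 to 0.39 for Kcnab1 and from -0.31 to 0.46 for Kcnab3, do not show that the genes kept their level.

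Levels of Kcna2 and Kcnab3 differed more within PTU than between the groups. Both were lowest in PTU replicate 5, the 1 PTU library without Y-linked counts, at 381 CPM for Kcna2 and 255 CPM for Kcnab3. PTU replicates 6 and 7 had 537 and 605 CPM of Kcna2, and 368 and 349 CPM of Kcnab3. Among libraries without Y-linked counts the log2 ratio of PTU_TH to PTU was 0.42 for Kcna2 and 0.24 for Kcnab3, and among those with them it was 0.07 for both genes. For Kcna1 it was 0.39 and 0.36, and for Kcnab2 0.36 and 0.26, in the same order. Of the counts in these 7 libraries, 34.4% to 41.0% came from genes over 100 kb long where Y-linked counts were absent, and 25.1% to 28.6% where they were present; the part of this difference in the Kv1 values was not tested.

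The second comparison asked what the dominant negative receptor changed, Mut against Ctrl. Again 0 of 8 tested Kv1 genes were called (edgeR, adjusted over 16949 genes), against 0.348% of all genes, and 3 had an unadjusted p under 0.05, against 8.74%. DESeq2 called 2 of them and limma-voom 1, where they called 2.11% and 1.95% of all genes. Of the 8 log2 fold changes 2 were positive, against 52.3% of those of all genes, and their median was -0.24, against 0.01 for all genes.

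Kcnab2 had the smallest p-value. Its level was 178, 238, 187 and 238 CPM in Ctrl and 114, 138, 162 and 145 CPM in Mut. All mutants were below all controls. The log2 fold change was -0.59 ± 0.14 with an adjusted p of 0.130 (edgeR), which misses the threshold. The same change had an adjusted p of 0.0101 in DESeq2, 0.0271 in limma-voom with quality weights and 0.0351 in 1 edgeR fit of all 4 groups. Within the libraries that had Y-linked counts (3 Mut and 1 Ctrl) the log2 ratio was -0.79, and within those that lacked them (1 Mut and 3 Ctrl) it was -0.47. As a share of the per-kilobase level of the beta genes, Kcnab2 was 25.7% ± 1.64 in Ctrl and 19.2% ± 1.22 in Mut (SD, n = 4 each).

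Kcna6 differed in the other direction, at 7.66, 8.86, 9.55 and 8.32 CPM in Ctrl and 10.4, 14.0, 16.0 and 13.5 CPM in Mut. Each mutant was above each control, and the log2 fold change was 0.65 ± 0.20 (adjusted p = 0.285 in edgeR and 0.0462 in DESeq2). Ranges without overlap, as for Kcnab2 and Kcna6, were found for 6.12% of all genes. Gm26673, which shares exonic bases with Kcna6 and was looked at after the Kcna6 values were seen, lay at 8.16 to 12.9 CPM in Ctrl and 0.952 to 5.10 in Mut. Reads in the shared part may be assigned to either gene or to neither, so the Kcna6 values are uncertain.

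The axonal pore genes had lower means in Mut, with overlapping ranges. Kcna1 was at 332, 391, 526 and 476 CPM in Ctrl and 311, 239.8, 319.8 and 367 CPM in Mut. Only Mut replicate 4 lay above the lowest control, Ctrl replicate 1. The log2 fold change was -0.48 ± 0.17 (adjusted p = 0.389, unadjusted p = 0.0170, edgeR). Kcna2 was at 389, 454, 579 and 618 CPM in Ctrl and 443, 311, 402 and 459 CPM in Mut, a log2 fold change of -0.34 ± 0.18 (adjusted p = 0.652, edgeR). In Mut, 3 libraries lay within the range of the controls. Kcna4 ranged from 0.902 to 4.07 CPM in Ctrl and from 0.476 to 6.34 in Mut, and Kcna5 from 0.0886 to 1.53 and from 0.0433 to 1.103, so that for both rare pore genes the spread within a group exceeded the difference.

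The other beta genes had smaller fold changes than Kcnab2. Kcnab1 averaged 209.9 ± 30.1 CPM in Ctrl and 189 ± 30.5 in Mut (log2 fold change -0.15 ± 0.15), and Kcnab3 averaged 243 ± 38.5 and 237 ± 28.9 CPM (-0.03 ± 0.14). The interval for Kcnab3 ran from -0.34 to 0.28. Beside these values, the summed level of 6 markers of other interneurons was 94.7 to 127 CPM in Ctrl and 130.1 to 245 CPM in Mut, with Sst at 5.14 to 9.21 and 6.00 to 21.1 CPM. Pvalb was 115 to 138 CPM in Ctrl and 67.1 to 92.6 CPM in Mut. The part of these differences in the Kv1 values was not tested.

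Each comparison lies within its own set of tables, and the 2 share no library. Their log2 fold changes were therefore tested against each other in a fit of the 15 libraries. In this test the set cannot be told apart from the comparison. The beta subunit gene Kcnab2 was the one Kv1 gene to pass this test: 1 of 8 members was called, against 1.93% of 17317 genes, and 3 had an unadjusted p under 0.05, against 11.5%. The change of Kcnab2 after the injection minus its change in the mutant was 0.87 ± 0.19 on the log2 scale, with a 95% interval from 0.46 to 1.27 and an adjusted p of 0.0241 (edgeR). In the same values, Kcnab2 was higher in 4 of 4 injected animals than in every PTU animal and lower in 4 of 4 mutants than in every control. Ranges did not overlap for 8.29% and 6.12% of all genes in these 2 comparisons. Neither change of Kcnab2 was called on its own in the fits of 2 groups (adjusted p = 0.616 and 0.130, edgeR). In 1 edgeR fit of all 4 groups, its change in the mutant was called alone (-0.59, adjusted p = 0.0351). Its change after the injection was not called in that fit. The difference for Kcnab2 was 0.78 to 0.95 in 18 alternative edgeR fits and passed the threshold in 13 of them. These fits used RLE or upper quartile scaling, Y-linked counts as a covariate, or left out 1 library. DESeq2 and limma-voom were not run for this test. Leaving out PTU_TH replicate 1, PTU replicate 5, PTU replicate 6, Ctrl replicate 2 or Ctrl replicate 4 gave adjusted p-values of 0.0566, 0.0581, 0.0672, 0.0536 and 0.0591 (edgeR).

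Kcna1 had a difference of nearly the same size, 0.85 ± 0.23 on the log2 scale, with an interval from 0.36 to 1.33, but an adjusted p of 0.0728 (edgeR). It passed in 1 of the alternative fits, without Ctrl replicate 1, at an adjusted p of 0.0280. Kcna2 had a difference of 0.46 ± 0.27 (adjusted p = 0.575) and Kcna6 one of -0.73 ± 0.30 (adjusted p = 0.320). For Kcnab1 the difference was 0.20 ± 0.20 and for Kcnab3 0.10 ± 0.23, with an interval from -0.39 to 0.58 (edgeR). Kcna4 and Kcna5 had differences of -0.98 ± 0.82 and 1.40 ± 1.34, whose errors leave the direction unknown.

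**Figure D3:**
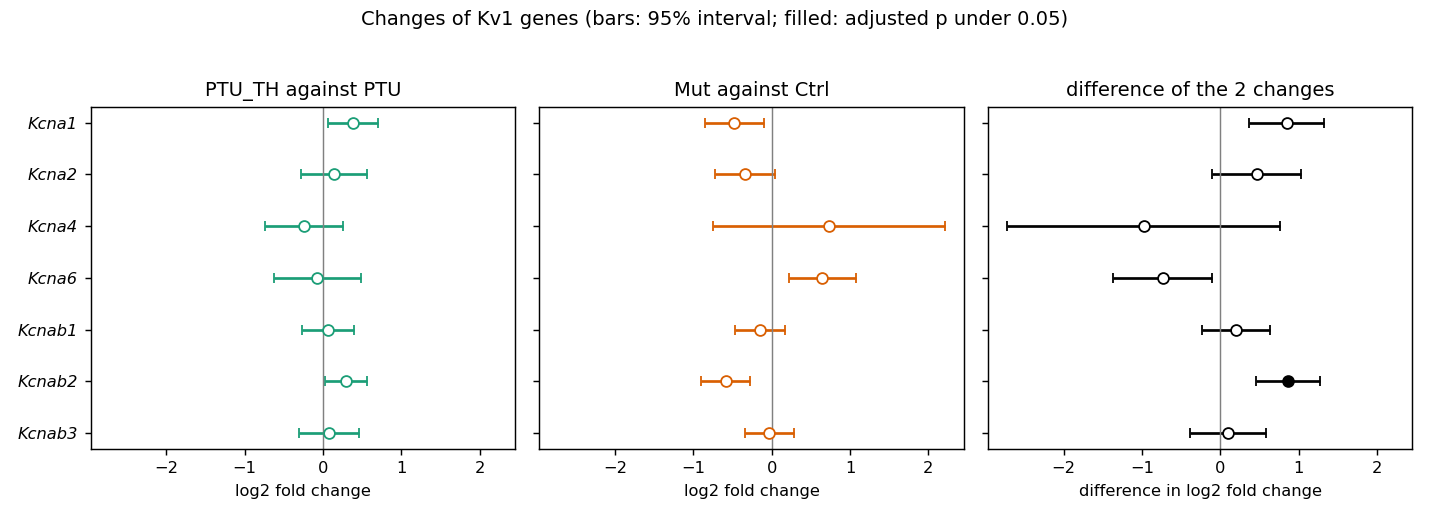
Log2 fold changes of 7 Kv1 genes in PTU_TH against PTU and in Mut against Ctrl, and the difference of the 2 changes, with 95% intervals; filled points have an adjusted p under 0.05. Kcnab2, at 0.29 and -0.59, is the one gene with a filled point, in the panel of the difference (0.87).

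**Figure D4:**
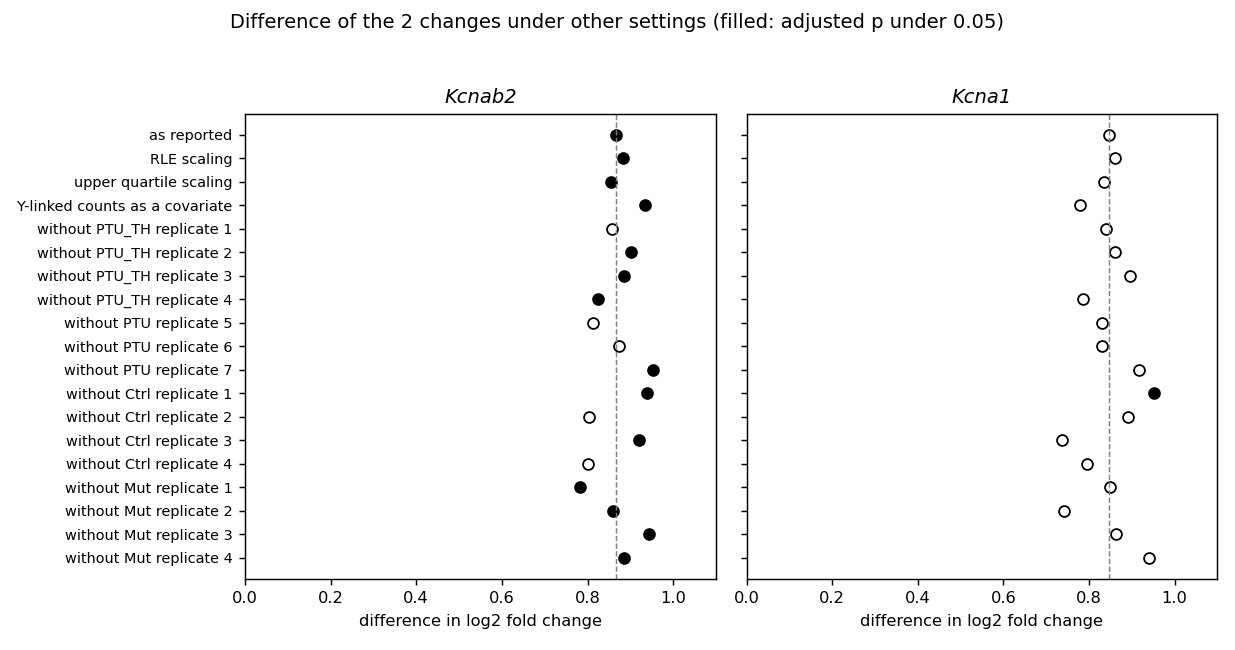
Difference of the 2 log2 fold changes of Kcnab2 and Kcna1 as reported and in 18 alternative edgeR fits. Filled points have an adjusted p under 0.05. Kcnab2 stays between 0.78 and 0.95 and passes in 13 alternatives, while Kcna1 lies between 0.74 and 0.95 and passes in 1.

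The comparisons of PTU and PTU_TH with Ctrl cross the sets of tables and share the Ctrl libraries, so they are not independent of each other or of Mut against Ctrl. In PTU against Ctrl, 0 of 8 tested members were called (edgeR), against 17% of 16496 genes, and 1 had an unadjusted p under 0.05, against 28.8%. DESeq2 called 0 and limma-voom 2, where they called 20% and 34.3% of all genes. No member had ranges that did not overlap, against 27.5% of all genes. The 8 log2 fold changes were split into 4 positive and 4 negative ones, with a median of 0.06, and 48.6% of those of all genes were positive.

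Kcnab3 had the smallest p-value there, at 191, 284, 243 and 252 CPM in Ctrl and 255, 368 and 349 CPM in PTU. Its log2 fold change was 0.42 ± 0.18 (adjusted p = 0.136, edgeR). It passed without PTU replicate 5 (adjusted p = 0.0223, edgeR) and, with all libraries kept, in limma-voom (adjusted p = 0.00676). The large change of the rare Kcna4 was 0.83 ± 0.45 (adjusted p = 0.256, edgeR). It passed without Ctrl replicate 1 (adjusted p = 0.0245, edgeR) and, with all libraries kept, in limma-voom (adjusted p = 0.0219). Kcna1 and Kcna2 were close to the control means, with log2 fold changes of -0.05 ± 0.18 and -0.001 ± 0.21. Their intervals ran from -0.44 to 0.34 and from -0.47 to 0.46. The mean of Kcnab2 was not lower in PTU than in Ctrl. Its log2 fold change was 0.12 ± 0.15 (adjusted p = 0.655, edgeR), with an interval from -0.21 to 0.45.

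In PTU_TH against Ctrl, 0 of 8 tested members were called (edgeR), against 17.8% of 15814 genes, and 2 had an unadjusted p under 0.05, against 30% of all genes. DESeq2 called 2 and limma-voom 3, where they called 21.5% and 24.5% of all genes. Of the 8 log2 fold changes 6 were positive, against 48.5% of those of all genes. The beta genes Kcnab3 and Kcnab2 were nearest to the threshold. Kcnab3 was at 326, 274, 361 and 392 CPM in PTU_TH, with a log2 fold change of 0.48 ± 0.15 (adjusted p = 0.0513, edgeR). It passed in 8 alternatives, among them DESeq2 (adjusted p = 0.0151), limma-voom (0.00997), RLE scaling (0.0456) and the fits without PTU_TH replicate 2 (0.0177) or Ctrl replicate 2 (0.0403). Kcnab2, with a lowest value of 255 CPM in PTU_TH and a highest of 238 CPM in Ctrl, had a log2 fold change of 0.39 ± 0.13 (adjusted p = 0.0636). Kcnab2 passed in 3 alternatives, DESeq2 (adjusted p = 0.0244), limma-voom (0.0260) and 1 edgeR fit of all 4 groups (0.0442). Its ranges did not overlap, as for 23.2% of all genes. Kcna1 averaged 431 ± 86.6 CPM in Ctrl and 537 ± 51.4 in PTU_TH, a log2 fold change of 0.31 ± 0.16 (adjusted p = 0.224, edgeR). The rare Kcna4 passed in 2 alternatives. These were limma-voom (log2 fold change 1.03, adjusted p = 0.0374) and the edgeR fit without Ctrl replicate 1 (1.13, adjusted p = 0.0343).

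Kv1 channels are held in place by axonal adhesion and scaffold proteins and by the secreted LGI proteins with their ADAM receptors. A list of 25 partner genes held genes of this kind. It also held Kif3a, Kif3b and Mapre1, which are not of this kind, and the further pore genes Kcna7 and Kcna10. The list was chosen with earlier results of these data known, so its shares are a description. Of the 25 genes, 22 passed the filter, and Kcna7, Kcna10 and Lgi4 did not. In PTU_TH against PTU 0 were called, against 0.281% of all genes, and 3 had an unadjusted p under 0.05, against 7.37% (edgeR). DESeq2 called 1 of 22, against 1.61% of all genes, and limma-voom 0. The smallest p-values belonged to Lgi3, which encodes a secreted LGI protein linked to axonal Kv1 clusters (log2 fold change 0.63 ± 0.18, adjusted p = 0.361), and to Dlg4, which encodes the scaffold PSD-95 (0.35 ± 0.13, adjusted p = 0.534). Of the 22 fold changes 18 were positive, against 49.5% of those of all genes, and their median was 0.14. In Mut against Ctrl 1 of 22 was called, Lgi3, against 0.348% of all genes, and 4 had an unadjusted p under 0.05, against 8.74% (edgeR). DESeq2 and limma-voom called 2 each, against 2.11% and 1.95% of all genes. Of the 22 fold changes 8 were positive, against 52.3%.

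Lgi3 was at 221, 319, 264 and 281 CPM in Ctrl and at 147, 167, 153 and 150.4 CPM in Mut. The mutants lay in a narrow band below all controls. Lgi3 fell by 0.81 ± 0.13 on the log2 scale (adjusted p = 0.0227, edgeR), a call lost, at adjusted p-values from 0.0657 to 0.102, without any 1 of Ctrl replicates 2, 3 and 4 or Mut replicates 1, 3 and 4. Its levels in PTU were 235, 351 and 341 CPM and in PTU_TH 458, 390.2, 484 and 557 CPM. The change after the injection minus that in the mutant was 1.43 ± 0.22 for Lgi3 (adjusted p = 0.00213) and 0.97 ± 0.20 for Cntn2 (adjusted p = 0.0136). These, from a list chosen with earlier results of these data known, were the 2 of 22 partners called in that test, against 1.93% of all genes (edgeR). Both passed in all 18 alternative edgeR fits. Cntn2, a contactin that holds Kv1 channels beside the node of Ranvier, averaged 127 ± 12.9 CPM in Ctrl, 78.5 ± 12.3 in Mut, 141 ± 18.3 in PTU and 171 ± 19.9 in PTU_TH. Its log2 fold change in Mut against Ctrl was -0.69 ± 0.14 (adjusted p = 0.0629, edgeR).

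**Figure D5:**
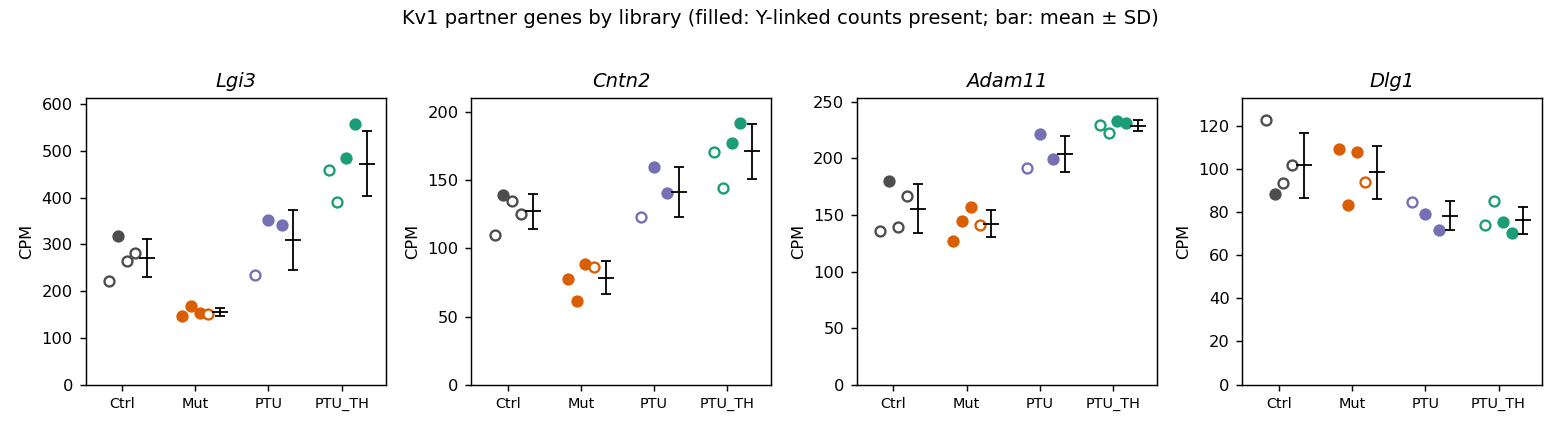
TMM-scaled CPM of 4 Kv1 partner genes in each library, by group, with mean ± SD beside the points; filled points have Y-linked counts. Lgi3 lies between 147 and 167 CPM in Mut and between 390.2 and 557 CPM in PTU_TH, and Dlg1 is lower in the PTU groups, which come from the other set of tables.

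Across the sets, 0 of 22 partners were called in PTU against Ctrl, against 17% of all genes, with 2 at an unadjusted p under 0.05, against 28.8% (edgeR). DESeq2 called 0 and limma-voom 4, against 34.3% of all genes. The smallest p-values were those of Adam11, a receptor for LGI proteins (0.40 ± 0.14, adjusted p = 0.0779), and Dlg1, which encodes the scaffold SAP97 (-0.37 ± 0.14, adjusted p = 0.106). In PTU_TH against Ctrl 4 of 22 were called, a share close to the 17.8% of all genes. Lgi3 (0.80 ± 0.15, adjusted p = 0.00231), Adam11 (0.55 ± 0.12, adjusted p = 0.00505) and Cntn2 (0.43 ± 0.12, adjusted p = 0.0286) were higher, and Dlg1 (-0.42 ± 0.12, adjusted p = 0.0331) was lower (edgeR). The calls of Cntn2 and Dlg1 were lost without any 1 of PTU_TH replicates 1, 3 and 4 or Ctrl replicates 1 and 4. Markers differed across the sets as well: the summed level of the 8 genes of the Pv neuron list had a median of 6994 CPM in Ctrl, 5538 in PTU and 5884 in PTU_TH. Mbp of oligodendrocytes was 43.4 to 49.2 CPM in Ctrl, 65.3 to 74.4 in PTU and 38.1 to 89.6 in PTU_TH. The part of these differences in the changes from Ctrl was not tested.

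The genes whose log2(CPM + 1) values followed those of a Kv1 gene most closely over the 15 libraries were ranked among 10050 genes by Pearson's r, as a description, since libraries of a group share treatment and set. For Kcna1 they were Atp2b2, a plasma membrane calcium pump (r = 0.959), Pwwp2b (0.955) and Kcnj9, an inward rectifier potassium channel (0.946). For Kcna2 they were Disp2 (0.940), Syt2, a calcium sensor of fast transmitter release (0.936), and Mfsd6 (0.921). Kcnab1 had weaker neighbours, with Zfp933 at 0.822, Snx9 at 0.810 and Fgd5 at 0.797. Among the Kv1 genes themselves, Kcna1 had an r of 0.843 with Kcna2, 0.826 with Kcnab2 and 0.549 with Kcnab3. Kcnab1, the beta gene with the least varied level, had an r of 0.486 with Kcna1.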

How the data were processed

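RNA of sorted nuclei was amplified with SMART-Seq v4, made into libraries with Nextera XT and read as 75-base single ends, per the labels' protocols. Raw counts per gene were deposited by the authors, 1 table per library. Alignment with Bowtie2 2.5.3 and counting with HTSeq against mm10 (GRCm38) are given by the submitters' processing notes; what annotation release and which counting and strand modes were used is not given in the sources used here. These kits do not mark strand, so counts of overlapping genes are uncertain. Reads carry no molecular identifiers, so the limit of 3 counts covers counting error only.

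Groups and replicate numbers come from the sample titles, which number mice. Members and partner and marker lists were chosen with earlier results of these data known. Each comparison used its own libraries in edgeR 4.0.16 (R 4.3.3) with TMM scaling, robust quasi-likelihood tests on genes kept by filterByExpr (minimum count 10) and p-values adjusted by Benjamini-Hochberg over all genes tested; a gene was called at an adjusted p under 0.05. The difference of 2 changes was a contrast in 1 fit of all 15 libraries on shared symbols. Levels are TMM-scaled CPM over 15 libraries, divided by exon length from GENCODE M21 where genes are compared. Scripts were tested on simulated data. Errors of log2 fold changes are standard errors. All 9 members are described; of the partners, those called (at most 6) or the 2 with the smallest p are named, and for Kcna1, Kcna2 and Kcnab1 the 3 genes of highest r among genes averaging at least 5 CPM. Adjusted p-values stated without a tool are from edgeR. Alternatives were DESeq2 1.42.0, limma-voom with quality weights (limma 3.58.1), scaling by RLE or upper quartiles, and a floor of 1 CPM or no filter. Others were a single fit of the 4 groups, Y-linked counts (threshold 50 CPM) as a covariate, the replicate number as a block, and leaving out each library in turn. The difference of 2 changes was refitted in edgeR only, with the other scalings, the covariate or a library left out. Alternatives of the partner list were added after seeing the data.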

Additional observations from a re-analysis of the deposited data

How the results depend on the processing

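Of 759 alternative values of the log2 changes of Kv1 genes and called partners, 694 kept their direction and side of the threshold, 23 no longer passed it, 22 newly passed it and 20 turned sign; the cause was not tested. The values that turned sign were not called. With limma-voom, Kcnab3 was -0.00711 in PTU_TH against PTU, and Kcna2 was 0.00422 in PTU against Ctrl and -0.00395 in PTU_TH against Ctrl. The others came from leaving out a library. In PTU_TH against PTU, values then ranged from -0.0151 to 0.280 for Kcna2 (negative without PTU replicate 5), from -0.295 to 0.0827 for Kcna6 (positive without PTU_TH replicates 3 or 4 or PTU replicate 5), from -0.00956 to 0.20 for Kcnab1 (negative without PTU_TH replicate 2 or PTU replicate 6) and from -0.0538 to 0.166 for Kcnab3 (negative without PTU replicate 5). In Mut against Ctrl, Kcnab3 ranged from -0.132 to 0.0506 (positive without Ctrl replicate 2 or Mut replicate 1). In PTU against Ctrl, Kcna1 ranged from -0.149 to 0.0602 (positive without Ctrl replicate 3) and Kcna2 from -0.150 to 0.160 (positive without PTU replicate 5 or Ctrl replicates 3 or 4). In PTU_TH against Ctrl, Kcna2 ranged from -0.00234 to 0.219 (negative without Ctrl replicate 1), Kcna6 from -0.0693 to 0.241 (negative without PTU_TH replicate 2) and Kcnab1 from -0.165 to 0.00143 (positive without Ctrl replicate 4). The difference of changes of Kcnab3 ranged from -0.0477 to 0.210 (negative without PTU replicate 5). The 43 genes called in PTU_TH against PTU became 246 with DESeq2, 171 with limma-voom, 335 with the Y-linked covariate and 5 to 29 when 1 library was left out. The 59 genes of Mut against Ctrl became 358 with DESeq2, 90 with a floor of 1 CPM, 196 in 1 fit of all groups, 331 with limma-voom, 31 with the Y-linked covariate and 11 to 103 with a library left out. The 2804 genes of PTU against Ctrl became 5653 with limma-voom and 2061 to 4283 with a library left out, and the 335 of the difference 208 to 396. Kv1 genes called in Mut against Ctrl were 2 with DESeq2, 1 in 1 fit of all groups and 1 with limma-voom; in PTU against Ctrl they were 2 with limma-voom and 0 to 1 with a library left out; in PTU_TH against Ctrl they were 2 with DESeq2, 1 with RLE scaling, 1 without a filter, 2 in 1 fit of all groups, 3 with limma-voom, 1 with the Y-linked covariate and 0 to 1 with a library left out; and in the difference test they were 0 to 2 with a library left out.

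Replicate numbers 1 to 4 are shared by Ctrl, Mut and PTU_TH, and whether same-numbered libraries are paired could not be settled. Their deviations had correlations from -0.02 to 0.20 for Mut and Ctrl, with 2 of 4 libraries best matched by their own number. For PTU_TH and Ctrl the correlations were -0.21 to 0.09, with 1 of 4 best matched. With the replicate block, 82 genes and 0 Kv1 genes were called in Mut against Ctrl, 2424 genes and 0 Kv1 genes in PTU_TH against Ctrl, and the partners called there went from 4 to 2, Cntn2 (adjusted p = 0.0680, edgeR) and Dlg1 (0.0729) being lost. No paired analysis was possible for the PTU comparisons because PTU replicates are numbered 5 to 7. Depth limits Kcna5, at 1 to 38 counts, and Kcna4, at 11 to 151. The common biological variation between libraries was 21.9% to 27.8%.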
